A study of Mus musculus with 12 samples.

Results

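The liver genes described here build, crosslink or degrade the extracellular matrix, or belong to the hepatic stellate cell. They are 37 genes chosen by name, each with a mean above 0 FPKM (fragments scaled to transcript length and sequencing depth), of 23284 genes in the deposited table. By role they comprise fibrillar collagens, basement membrane, collagen VI, collagen XIV and fibrillin, proteoglycans and glycoproteins, crosslinking enzymes, proteases, TIMP inhibitors, contractile and stellate cell genes, and Tgfb1. A gene was tested when at least 2 libraries reached 1 FPKM, which 32 of the 37 did. Fbn1, Thbs1, Lox, Mmp13 and Timp1 did not reach that level.

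Liver RNA was sequenced from mice without apolipoprotein A-I and apolipoprotein E (genotype Apoa1-/- Apoe-/-, DKO) and from mice with the same 2 knockouts that also expressed human APOA1 (DKO/hA1). The food was chow or a Western diet, given for 22 weeks. There were 4 libraries of DKO on chow and 3 on Western diet, and 2 of DKO/hA1 on chow and 3 on Western diet. Group means are given ± SD over these numbers of libraries, and log2 fold changes ± SE. All 12 libraries carry both knockouts, so no group stands for a liver with its own Apoa1 and Apoe. The labels do not give the promoter of the transgene, the sex, the age or whether livers were pooled, and p-values measure the spread between these samples. The first number of the sample code is 57 for both DKO/hA1 chow libraries and DKO chow replicate 3, and 41 for replicate 1 of each Western diet group, and what it stands for is not given in the sources used here.

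Hepatic stellate cells lie between hepatocytes and sinusoidal endothelium and store vitamin A as retinyl ester. When the liver is injured they can turn into myofibroblasts, driven by transforming growth factor beta and platelet-derived growth factor, and secrete fibrillar collagen, which lysyl oxidases crosslink. Metalloproteases cleave the matrix and TIMP proteins hold those proteases back, so a liver's matrix depends on both sides.

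Of the 37 genes, 24 had a promoter entry in RefSeq, and the 250 bases before the annotated start (build GRCm38.p6) are shown for 3 of them. Htra1 is the only member that passed a test, Timp1 has the lowest level of the 3 TIMP members, and Col1a2 stands for the fibrillar collagens. Capitals mark matches on either strand to CCAAT, known as the CCAAT box, to the GC box letters GGGCGG, to the TATA box letters TATAA, or to the AP-1 letters TGANTCA, and no 2 matches overlap in these windows.
Htra1, chr7:130935953-130936202, plus strand: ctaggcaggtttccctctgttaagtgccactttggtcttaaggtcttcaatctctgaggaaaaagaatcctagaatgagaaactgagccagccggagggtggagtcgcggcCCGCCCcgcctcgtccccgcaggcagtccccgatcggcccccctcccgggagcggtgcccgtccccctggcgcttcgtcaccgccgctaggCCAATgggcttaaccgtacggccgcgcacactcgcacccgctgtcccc
Timp1, chrX:20869916-20870165, plus strand: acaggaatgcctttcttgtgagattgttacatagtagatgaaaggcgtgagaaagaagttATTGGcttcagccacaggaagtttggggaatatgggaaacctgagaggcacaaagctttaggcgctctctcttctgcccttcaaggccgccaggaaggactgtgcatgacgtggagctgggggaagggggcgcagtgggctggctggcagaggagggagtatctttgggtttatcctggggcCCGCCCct
Col1a2, chr6:4505368-4505617, plus strand: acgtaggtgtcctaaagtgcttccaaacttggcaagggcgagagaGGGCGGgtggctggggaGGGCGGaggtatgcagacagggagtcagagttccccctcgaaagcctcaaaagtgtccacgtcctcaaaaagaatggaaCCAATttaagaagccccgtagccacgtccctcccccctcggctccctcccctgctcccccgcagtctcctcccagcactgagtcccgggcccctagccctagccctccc
Htra1 and Timp1 each held 1 CCAAT and 1 GGGCGG, and Col1a2 held 1 CCAAT and 2 GGGCGG. G and C made up 64.8% of the Htra1 window, 54.4% of the Timp1 window and 62% of the Col1a2 window. Among the 24 windows, GGGCGG occurred in 16, CCAAT in 10, TATAA in 4 and TGANTCA in 2, those of Mmp13 and Col6a1. Of 32851 RefSeq windows of the same length, 32.7% held GGGCGG, 33.8% CCAAT, 22.8% TATAA and 6.75% TGANTCA. These matches are descriptions of letters and not binding sites.

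The genotype check rested on Apoa1 and Apoe. Apoa1 (chromosome 9, 46228630 to 46230469) averaged 40.4 ± 7.78, 59.4 ± 18.6, 227 ± 13.6 and 189 ± 60.7 FPKM in the chow and Western diet groups of DKO and then of DKO/hA1, and Apoe ranged from 12.9 to 89.8 FPKM. Both knocked-out genes thus had fragments in the 7 DKO libraries, and the table does not show which part of each gene they cover. Relative depth, estimated from the size of low values, spanned 0.515 to 1.31 of DKO chow replicate 1, lowest in DKO chow replicate 2 and DKO Western diet replicate 3 (0.553). Depth went with the transgene. On Western diet it was 0.992 to 1.31 in DKO/hA1 and 0.553 to 0.975 in DKO. On chow it was 1.02 and 1.12 in DKO/hA1 and 0.515 to 1 in DKO. The part of depth in the transgene differences was not tested. Hepatocyte markers summed to 9010 to 18160 FPKM per library, and stellate cell markers to 63.3 to 159.9. Neutrophil markers stood apart in DKO Western diet replicate 2 (992.5 FPKM in sum) and DKO/hA1 Western diet replicate 3 (897.9), against 12.2 to 224.8 elsewhere.

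Within a group, the same libraries tended to hold the highest and lowest values of the matrix genes. DKO chow replicate 4 was the highest of its group for 27 of the 37 genes and replicate 2 the lowest for 28. DKO Western diet replicate 1 was highest for 30 and replicate 3 lowest for 28, and DKO/hA1 chow replicate 1 was the higher of its pair for 33. DKO/hA1 Western diet was more even, with replicate 2 highest for 19 and replicate 1 lowest for 22. DKO chow replicate 2 and DKO Western diet replicate 3 were also the libraries of lowest relative depth. Markers of other cell types moved with the order of the matrix genes. Sinusoidal endothelial markers summed to 59.9 FPKM in DKO chow replicate 2 against 154.5 to 173 in its group, to 71.4 in DKO Western diet replicate 3 against 106.6 and 151.8, and to 54.6 in the second DKO/hA1 chow library against 160.5 in the first. The bile duct markers Krt19 and Epcam stood at 8.23 and 9.30 FPKM in DKO chow replicate 4, where the other 11 libraries had at most 1.79 and 1.63. The whole list of 6 bile duct markers did not single out that library. It summed to 61.9 FPKM there, to 123.2 in DKO Western diet replicate 2 and to 157.2 in DKO/hA1 Western diet replicate 3. The part of these cells in the matrix values was not tested, and in whole liver RNA fewer cells of a type and less RNA per cell cannot be told apart.

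The transgene on Western diet asked whether matrix genes differ between livers with and without human APOA1 on that diet. Col1a1, a chain of type I collagen, averaged 6.81 ± 1.54 FPKM with the transgene and 2.71 ± 1.53 without it, and Htra1, a secreted protease, 3.64 ± 0.347 and 1.43 ± 0.108, but neither passed the test. No member passed (0 of 32, against 0% of 11546 genes tested), with limma's moderated test and Benjamini-Hochberg adjusted p below 0.05. At an unadjusted p below 0.05, 17 members had a positive log2 fold change and 0 a negative one, where 4.05% and 1.8% of all genes did. The fitted log2 fold change was above 0 for 30 of the 32, against 51.4% of all genes, with a median of 0.52 against 0.01. In 13 members each DKO/hA1 library lay above each DKO library, which 4.38% of genes did, and in 0 members below, which 5.16% did. Those 13 were Bgn, Col1a1, Col1a2, Col3a1, Col5a1, Col6a1, Col6a2, Des, Htra1, Lamb1, Lum, Sparc and Tgfb1. With the first number of the sample code taken as a random block (correlation 0.56), 8 members were positive and 1 negative at an unadjusted p below 0.05. Positive values at that level numbered 6 without DKO Western diet replicate 3. They numbered 6 also without the second DKO/hA1 library of that diet, and 8 without DKO Western diet replicate 2. Without DKO chow replicate 4 or DKO Western diet replicate 1 they numbered 19, the latter with 1 negative value besides. With the replicate number as a block and equal totals they numbered 22. The share of all genes at that level in these alternatives is not given here. Whichever library was left out, 29 or 30 of 32 log2 fold changes stayed above 0. Groups separate more readily with fewer libraries. Without DKO Western diet replicate 1, 26 members did not overlap, against 9.53% of genes, and without replicate 1 of DKO/hA1 Western diet 21 did not, against 11% of genes.

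On chow, the transgene comparison likewise had no member past the test (0 of 32, against 0.0779% of genes, limma), and 8 members had an unadjusted p below 0.05, each with a positive log2 fold change (3.91% of genes). Log2 fold changes above 0 were found for 28 of 32 (50.2% of genes), with a median of 0.30 against 0.00 over all genes. Groups did not overlap, with the transgene higher, in Col1a1, Col1a2, Col3a1, Col5a2, Htra1 and Lamc1, 6 members, against 12.3% of genes. Without DKO chow replicate 4 the number was 17, against 16.8% of genes. Without DKO/hA1 chow replicate 2, which leaves that group 1 library, the higher of its pair for most members, it was 22, against 24.6% of genes. At an unadjusted p below 0.05 there were 4 members without DKO chow replicate 2 or 3, 5 without replicate 1, and 12 without replicate 4. The share of all genes at that level in these alternatives is not given here. Without DKO/hA1 chow replicate 1, which also leaves that group 1 library, the members' median log2 fold change was 0.13. The transgene comparisons on Western diet and on chow share no library, whereas each of them shares groups with the diet comparisons.

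Averaged over the diets, a comparison added after the values were seen, the transgene passed for 1 of 32 members, Htra1, against 0.0779% of genes called higher. Col1a1 was the only member in which each of the 5 libraries with the transgene exceeded each of the 7 without it, as did 0.268% of genes.

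**Figure D1:**
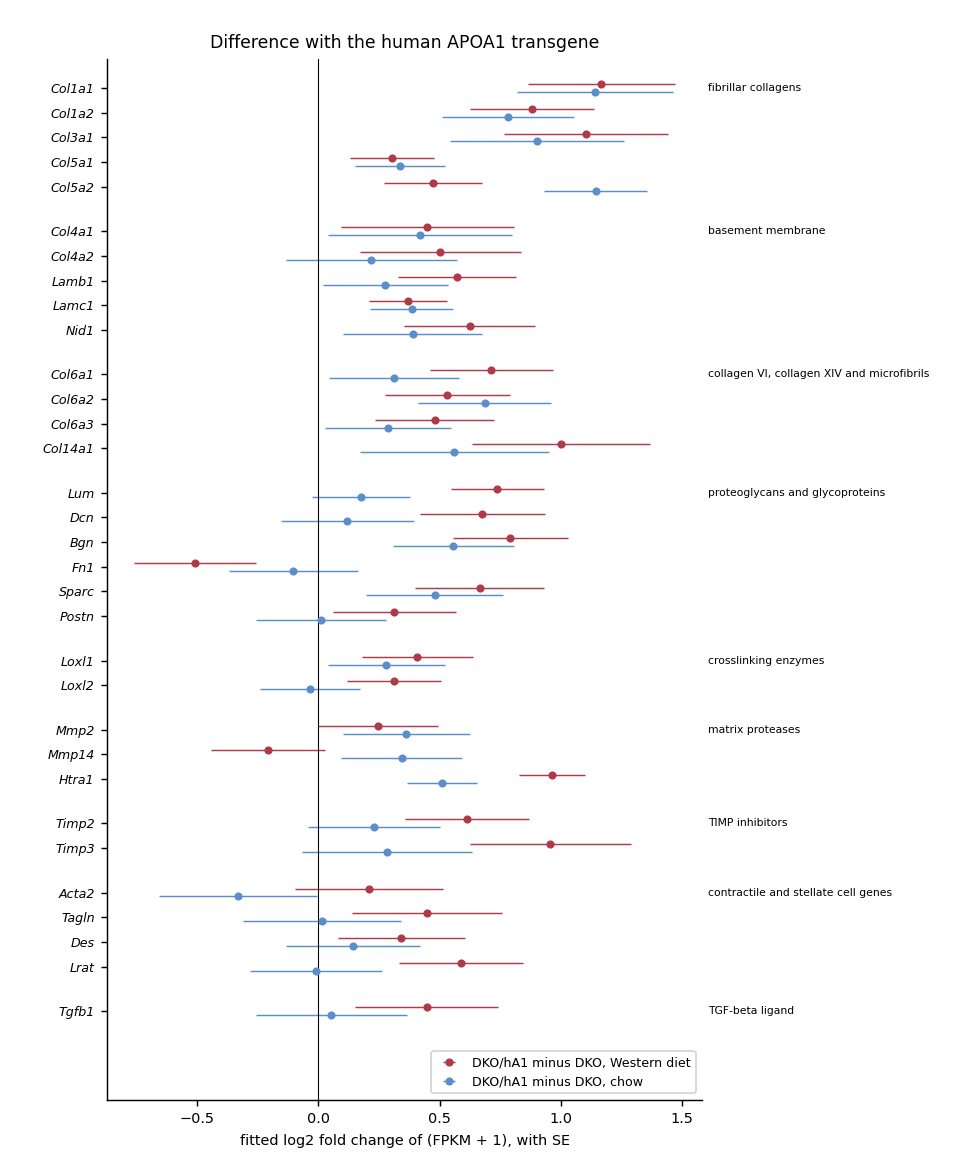
Fitted log2 fold change of FPKM + 1 with its SE for the 32 tested matrix genes, DKO/hA1 minus DKO, on Western diet (red) and on chow (blue), ordered by role. On Western diet 30 points lie right of 0 and on chow 28, and no point passed the test after adjustment.

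Of the members, fibronectin (Fn1) averaged 359.5 ± 104.2 FPKM in DKO livers on Western diet and 212.4 ± 39.6 on chow, and no member passed the test for diet (0 of 32, against 0.113% of genes, limma). At an unadjusted p below 0.05, Fn1 and Htra1 had positive and Timp3 a negative log2 fold change (7.21% and 4.54% of genes). Log2 fold changes were above 0 for 16 of 32 members (49% of genes), with a median of -0.00, as over all genes. With libraries scaled to equal totals the number was 11, but the median of all genes moved likewise, to -0.19 against -0.18 for members. With FPKM as deposited it was 20, with medians of 0.052 over all genes and 0.045 over members. It was 9 without DKO chow replicate 2, 10 without DKO Western diet replicate 1, and 24 without DKO chow replicate 4 or DKO Western diet replicate 3. The share of all genes above 0 in these alternatives is not given here. Only Col5a2 and Htra1 had each Western diet library above each chow library, 2 members against 10.5% of genes, and 7 members did without DKO chow replicate 4 (14.3% of genes). That number was 4 without DKO Western diet replicate 1 or 3 (17.9% and 16.3% of genes).

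In DKO/hA1 livers 1 of 32 members, Htra1, passed for diet, against 1.12% of genes called higher. Log2 fold changes were above 0 for 24 of 32 (50.2% of genes). With libraries scaled to equal totals 19 were above 0, with a median of 0.13 over members and -0.08 over all genes. In the main fit the members' median was 0.22, and without DKO/hA1 chow replicate 2 it was -0.02, with 16 above 0. At an unadjusted p below 0.05 there were 3 members, Htra1, Lum and Tgfb1, each with a positive value (8.26% of genes). Without DKO/hA1 Western diet replicate 1 there were 6, and the share of all genes in that fit is not given here. Groups did not overlap, with Western diet higher, for Col1a2, Dcn, Htra1, Loxl2, Lum and Tgfb1, 6 members against 15.6% of genes, and for 10 members without DKO/hA1 Western diet replicate 1, against 22.3% of genes. Without DKO/hA1 chow replicate 1 the chow group is 1 library, the lower of its pair for 33 of the 37 genes, and the number was 21, against 26.8% of genes. For the difference between both diet effects (the interaction), 0 of 32 members passed (0.0173% of genes, limma), and at an unadjusted p below 0.05 there were 2, Htra1 with a positive and Col5a2 with a negative value (4.9% of genes in either direction). No diet response of a member is therefore shown to differ between the genotypes. Averaged over genotypes, Htra1 again was the member that passed, against 2.91% of genes called higher.

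**Figure D2:**
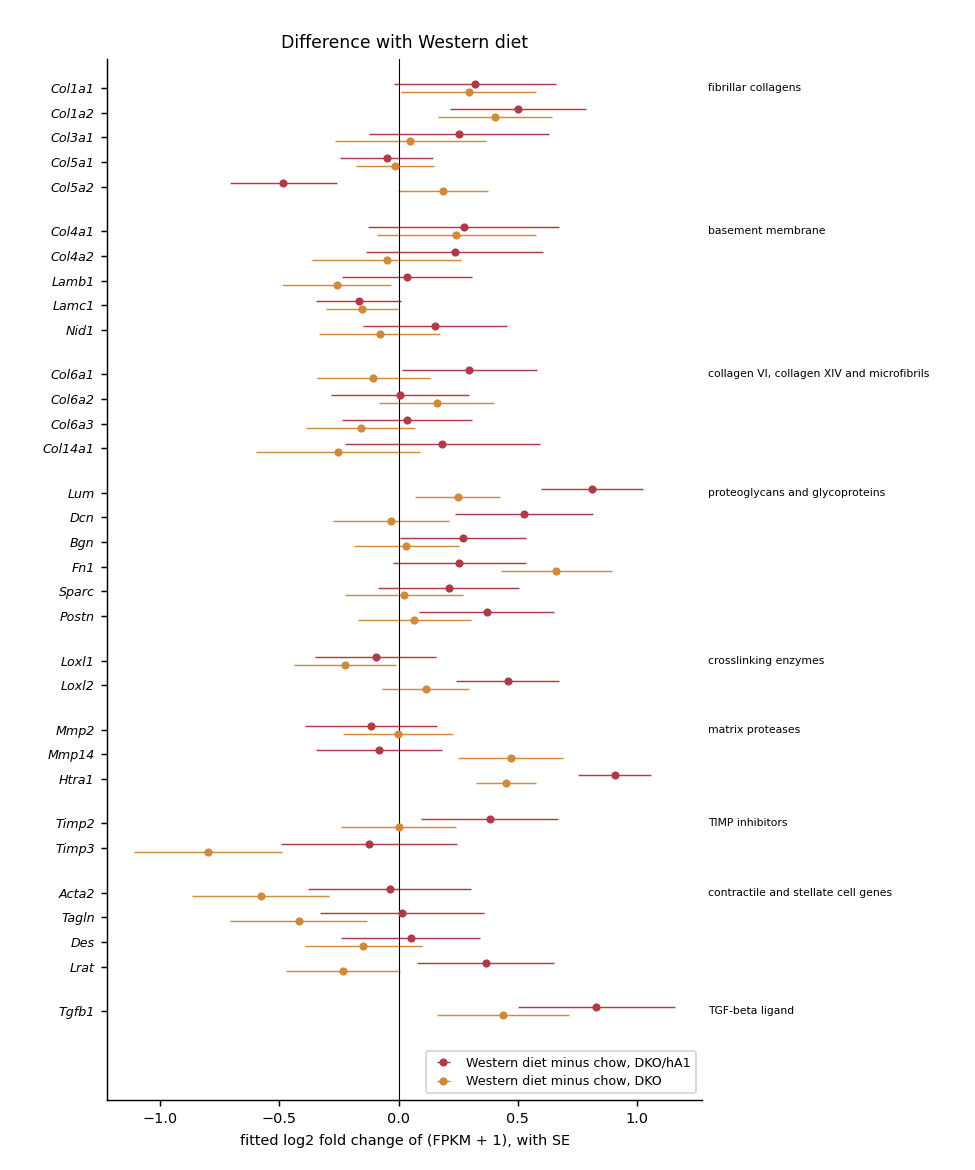
Fitted log2 fold change of FPKM + 1 with its SE for the same 32 genes, Western diet minus chow, in DKO/hA1 (red) and in DKO (orange). Points fall on both sides of 0 in DKO, 16 on each, and Htra1 in DKO/hA1 is the point that passed the test. With equal totals 11 lie above and 21 below 0 in DKO, where the median of all genes is -0.19.

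Htra1 encodes a secreted serine protease that cleaves matrix proteins such as fibronectin and can restrain transforming growth factor beta signalling. Its gene (chromosome 7, 130936203 to 130985658) stood at 0.945, 0.612, 0.640 and 0.743 FPKM in DKO chow, at 1.55, 1.37 and 1.35 in DKO Western diet, at 1.90 and 1.12 in DKO/hA1 chow, and at 3.61, 3.31 and 4.00 in DKO/hA1 Western diet. The 3 livers with both the transgene and the Western diet were above the other 9, and DKO chow was below the rest. Means were 0.735 ± 0.151, 1.43 ± 0.108, 1.51 ± 0.554 and 3.64 ± 0.347 FPKM. Htra1 rose with diet in DKO/hA1 by 0.91 ± 0.15 on the log2 scale of FPKM + 1 (limma adjusted p = 0.0227), with diet averaged over genotypes by 0.68 ± 0.10 (0.00709), and with the transgene averaged over diets by 0.74 ± 0.10 (0.0172). It did not pass for diet in DKO (0.45 ± 0.13, adjusted p = 0.23), for the transgene on Western diet (0.96 ± 0.14, 0.188) or on chow (0.51 ± 0.14, 0.375), or for the interaction (0.46 ± 0.20, 0.965). The value of 1 added before the log2 makes these changes smaller than the ratio of the means.

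Few fragments lay behind these Htra1 values. For 21 of the 37 genes, the 12 FPKM values were reproduced by whole numbers of fragments, the smallest that fitted every library within 0.12 of a fragment. Htra1 had 24, 8, 16 and 15 fragments in DKO chow, 36, 34 and 19 in DKO Western diet, 54 and 29 in chow-fed DKO/hA1, and 91, 110 and 120 in DKO/hA1 Western diet. The exact 95% Poisson interval of the 8 fragments in DKO chow replicate 2 was 0.264 to 1.21 FPKM and that of the 120 was 3.31 to 4.78. Such intervals cover counting error only. No DKO chow library reached 1 FPKM, so Htra1 entered the test through the other groups.

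The Htra1 calls depended on single choices. With the sample code number as a random block, Htra1 did not pass for diet in DKO/hA1 (limma adjusted p = 0.0925) or averaged over genotypes (0.0614). For diet in DKO/hA1, 17 of 25 alternatives kept it past the threshold (0.69 to 1.26, adjusted p 0.0176 to 0.399). It was lost without DKO/hA1 chow replicate 2 (0.69, adjusted p = 0.399) and without replicate 2 of DKO/hA1 Western diet (0.0572) or 3 (0.0513). Averaged over genotypes it was kept in 22 of 24, and lost without DKO/hA1 chow replicate 2 (0.0526). For the transgene averaged over diets it was kept in 18 of 24 (adjusted p 0.00468 to 0.138), and lost when replicate 3 of DKO chow (0.0575), replicate 2 (0.0689) or 3 (0.0593) of DKO Western diet, or replicate 1 of DKO/hA1 chow (0.126) was left out. Macrophage and Kupffer cell markers, of which 8 of 12 were called higher with diet in DKO/hA1 (1.12% of genes), moved with Htra1 across diets. They summed to 320.8 to 742.6 FPKM in DKO chow, 1012 to 1342 in DKO Western diet, 242.5 to 606.3 in chow-fed DKO/hA1 and 1501 to 2292 in DKO/hA1 Western diet, and their part in the Htra1 result was not tested. GENCODE vM21 places Htra1 within the span of Fgfr2 on the other strand, and whether strand was used in the authors' counting is not given in the sources used here. Fgfr2 ranged from 3.66 to 9.02 FPKM.

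**Figure D3:**
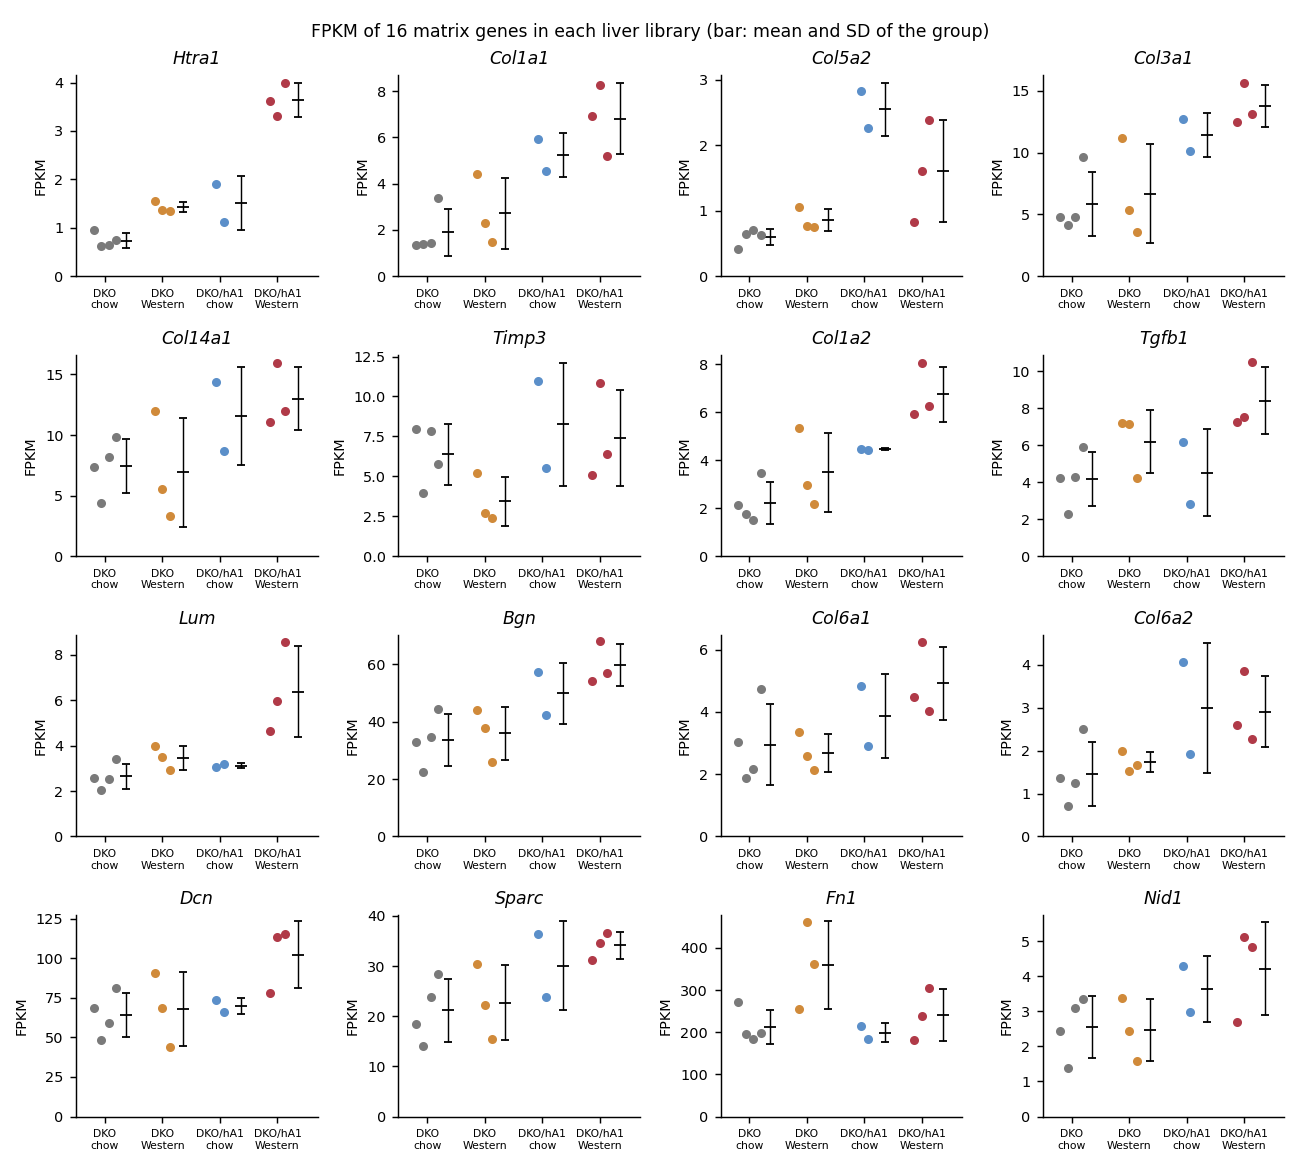
FPKM in each liver library for the 16 matrix genes given library by library, with the group mean and SD beside the points. Htra1 shows its highest values, 3.31 to 4.00, in DKO/hA1 Western diet, and in Col1a1 the 5 transgene libraries lie above the 7 others.

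Fibrillar collagens form the tensile fibres that accumulate in a scarred liver. All 5 of them had a log2 fold change above 0 with the transgene on each diet, with medians of 0.88 on Western diet and 0.90 on chow, and none passed the test (limma, 4 of 5 at an unadjusted p below 0.05 on each diet). Of all genes, 51.4% and 50.2% were above 0 on Western diet and chow, and 4.05% and 3.91% were positive at that unadjusted level. These shares also stand beside the transgene counts of the roles below. Their summed level was 8.46 to 18.5 FPKM in DKO chow, 8.66 to 23.2 in DKO Western diet, 22.5 to 27.7 in DKO/hA1 chow and 27.6 to 35.0 in DKO/hA1 Western diet. Only DKO Western diet replicate 1, at 23.2, reached into the range of the transgene libraries.

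Col1a1 (chromosome 11, 94936224 to 94953042) encodes the main chain of type I collagen. It stood at 1.35, 1.38, 1.44 and 3.38 FPKM in DKO chow, at 4.41, 2.28 and 1.45 in DKO Western diet, at 5.91 and 4.55 in DKO/hA1 chow, and at 6.94, 8.27 and 5.21 in DKO/hA1 Western diet, from 44 to 674 fragments. The 2 groups with the transgene lay above both groups without it, although 4.41 and 4.55 nearly touch. The log2 fold change with the transgene was 1.17 ± 0.30 on Western diet (limma adjusted p = 0.696) and 1.14 ± 0.32 on chow (0.375). With diet it was 0.29 ± 0.28 in DKO and 0.32 ± 0.34 in DKO/hA1. For the transgene averaged over diets it was 1.15 ± 0.22 (unadjusted p = 0.000273, adjusted p = 0.143).

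Col1a2, the second chain of type I collagen, stood at 2.12, 1.76, 1.52 and 3.48 FPKM in DKO chow, at 5.34, 2.96 and 2.17 in DKO Western diet, at 4.49 and 4.42 in DKO/hA1 chow, and at 5.93, 8.06 and 6.28 in DKO/hA1 Western diet. DKO Western diet replicate 1 again exceeded the rest of the libraries without the transgene. Its log2 fold change with the transgene was 0.88 ± 0.26 on Western diet (limma adjusted p = 0.742) and 0.78 ± 0.27 on chow (0.497), and with diet 0.40 ± 0.24 in DKO and 0.50 ± 0.29 in DKO/hA1. Col3a1, the type III collagen of young scar, was at 4.79, 4.12, 4.79 and 9.64 FPKM, at 11.2, 5.31 and 3.54, at 12.7 and 10.2, and at 12.5, 15.7 and 13.2 in the same order of groups. Its transgene log2 fold changes were 1.10 ± 0.34 on Western diet (0.742) and 0.90 ± 0.36 on chow (0.605).

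Type V collagen joins the core of type I fibrils and sets their width. Col5a2 (chromosome 1, 45374331 to 45503282) stood at 0.417, 0.636, 0.699 and 0.624 FPKM in DKO chow, at 1.05, 0.764 and 0.754 in DKO Western diet, at 2.83 and 2.26 in DKO/hA1 chow, and at 0.819, 1.61 and 2.38 in DKO/hA1 Western diet. Its highest group was DKO/hA1 on chow, unlike Col1a1, Col1a2 and Col3a1, whose highest mean was in DKO/hA1 on Western diet. No DKO chow library reached 1 FPKM, so the gene entered the test through the other groups. The transgene log2 fold change on chow was 1.14 ± 0.21 (limma adjusted p = 0.135) and passed in 4 of 25 alternatives, among them without DKO/hA1 Western diet replicate 1 (0.0286) or 3 (0.0216), which are in neither group but enter the shared variance. On Western diet it was 0.47 ± 0.20 (0.85), and the interaction was -0.67 ± 0.29 (0.965). Col5a1, the partner chain, ranged from 0.566 to 1.78 FPKM with transgene log2 fold changes of 0.30 ± 0.17 and 0.34 ± 0.19 on Western diet and chow.

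Basement membrane genes encode the sheet-like matrix beneath vessels and ducts. All 5 members (Col4a1, Col4a2, Lamb1, Lamc1 and Nid1) had transgene log2 fold changes above 0 on both diets, with medians of 0.50 on Western diet and 0.38 on chow, and none passed (limma, 3 and 1 at an unadjusted p below 0.05). Nid1, which links laminin to collagen IV, stood at 2.43, 1.37, 3.09 and 3.35 FPKM in DKO chow, at 3.37, 2.44 and 1.59 in DKO Western diet, at 4.30 and 2.97 in DKO/hA1 chow, and at 2.70, 5.11 and 4.84 in DKO/hA1 Western diet. Its groups overlapped in each comparison, and its transgene log2 fold change on Western diet was 0.62 ± 0.27 (limma adjusted p = 0.85). Lamc1, the common gamma chain of laminin, ranged from 1.77 to 3.96 FPKM and had 0.37 ± 0.16 on Western diet and 0.38 ± 0.17 on chow. Lamb1, a laminin beta chain, ranged from 0.703 to 2.96 FPKM, with 0.57 ± 0.24 and 0.28 ± 0.26. Col4a1 ranged from 2.04 to 10.1 FPKM and Col4a2 from 1.87 to 6.27, and these genes meet head to head on chromosome 8, sharing 22 bases in GENCODE vM21.

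Collagen VI makes beaded filaments around cells, and collagen XIV decorates the surface of collagen fibres. The 4 tested members had transgene medians of 0.62 on Western diet and 0.44 on chow, each log2 fold change above 0 and none past the test (limma, 2 and 1 at an unadjusted p below 0.05). Col6a1 stood at 3.03, 1.86, 2.16 and 4.75 FPKM in DKO chow, at 3.35, 2.58 and 2.15 in DKO Western diet, at 4.83 and 2.91 in DKO/hA1 chow, and at 4.48, 6.24 and 4.04 in DKO/hA1 Western diet. The groups separated on Western diet (0.71 ± 0.25, limma adjusted p = 0.781) and overlapped on chow (0.31 ± 0.27). Col6a2, its neighbour on chromosome 10, was at 1.35, 0.717, 1.25 and 2.50 FPKM, at 1.99, 1.54 and 1.67, at 4.07 and 1.93, and at 2.61, 3.85 and 2.27 in the same order. Its transgene values were 0.53 ± 0.26 on Western diet and 0.69 ± 0.27 on chow (0.605). Col6a3, the third chain, ranged from 0.836 to 2.64 FPKM.

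Col14a1 stood at 7.34, 4.43, 8.17 and 9.82 FPKM in DKO chow, at 11.98, 5.52 and 3.31 in DKO Western diet, at 14.4 and 8.71 in DKO/hA1 chow, and at 11.1, 15.95 and 11.996 in DKO/hA1 Western diet. Groups overlapped in each comparison, and on Western diet the overlap rested on DKO replicate 1. The transgene log2 fold change was 1.00 ± 0.37 on Western diet (limma adjusted p = 0.795) and 0.56 ± 0.39 on chow (0.807). Fbn1, which encodes the microfibril protein fibrillin-1, was not tested and ranged from 0.162 to 0.854 FPKM.

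Small leucine-rich proteoglycans coat collagen fibrils and bind growth factors. With the glycoproteins they made up 6 tested members, of which none passed with the transgene (limma, 4 on Western diet and 1 on chow at an unadjusted p below 0.05), with medians of 0.67 and 0.15. Lum (lumican) stood at 2.59, 2.03, 2.55 and 3.40 FPKM in DKO chow, at 3.97, 3.49 and 2.93 in DKO Western diet, at 3.04 and 3.21 in DKO/hA1 chow, and at 4.63, 5.95 and 8.56 in DKO/hA1 Western diet. The livers with transgene and Western diet were above the other 9, the pattern Htra1 also had. Its log2 fold change with diet in DKO/hA1 was 0.81 ± 0.21 (limma adjusted p = 0.0913), which passed without DKO/hA1 Western diet replicate 1 (1.00, 0.0414), and that with the transgene on Western diet was 0.74 ± 0.19 (0.696). Dcn (decorin) was at 68.9, 48.2, 59.3 and 81.0 FPKM, at 90.6, 68.6 and 43.9, at 73.6 and 66.4, and at 78.0, 113.7 and 115.3 in the same order. Its transgene log2 fold change was 0.68 ± 0.26 on Western diet (0.83) and 0.12 ± 0.28 on chow.

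Bgn (biglycan) stood at 32.9, 22.4, 34.6 and 44.5 FPKM in DKO chow, at 44.2, 37.7 and 26.0 in DKO Western diet, at 57.5 and 42.3 in DKO/hA1 chow, and at 54.3, 68.0 and 56.8 in DKO/hA1 Western diet. On Western diet the groups separated (0.79 ± 0.24, limma adjusted p = 0.742), and on chow DKO replicate 4 lay inside the transgene range (0.56 ± 0.25, 0.655). Sparc, a collagen-binding glycoprotein of remodelling tissue, was at 18.4, 14.1, 23.8 and 28.4 FPKM, at 30.4, 22.2 and 15.5, at 36.3 and 23.8, and at 31.3, 34.6 and 36.6 in that order. Its transgene values were 0.66 ± 0.27 on Western diet (0.832) and 0.48 ± 0.28 on chow (0.764). Per unit of transcript length, Fn1, Dcn and Bgn were the most abundant members, with means over all libraries of 254.3, 75.6 and 43.4 FPKM.

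Fn1 encodes fibronectin, which hepatocytes secrete into plasma in addition to the form that matrix cells lay down. It stood at 271.3, 194.9, 185.1 and 198.4 FPKM in DKO chow, at 254.4, 462.8 and 361.3 in DKO Western diet, at 214.7 and 183.7 in DKO/hA1 chow, and at 182.5, 237.5 and 305.2 in DKO/hA1 Western diet. The 2 highest libraries were DKO Western diet replicates 2 and 3. With diet in DKO its log2 fold change was 0.66 ± 0.23 (limma adjusted p = 0.311), and with the transgene on Western diet it was -0.51 ± 0.25 (0.873), one of the 2 negative values among the 32 members there, with Mmp14. Postn, the matricellular protein periostin, ranged from 1.58 to 4.26 FPKM with no log2 fold change past the test. Thbs1, which encodes thrombospondin-1, an activator of latent transforming growth factor beta, was not tested and ranged from 0.194 to 1.14 FPKM.

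Lysyl oxidases crosslink collagen and elastin. Loxl1 ranged from 0.167 to 1.25 FPKM and Loxl2 from 0.452 to 1.86, with transgene log2 fold changes on Western diet of 0.41 ± 0.23 and 0.31 ± 0.19. Loxl2 was the crosslinking enzyme whose Western diet libraries in DKO/hA1 lay above the chow ones (0.46 ± 0.22, limma adjusted p = 0.39). Lox itself had 1 to 11 fragments per library and was not tested. In a fit without the level filter, over 17887 genes, its transgene log2 fold change averaged over diets was 0.11 ± 0.04 (adjusted p = 0.478).

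Among metalloproteases, Mmp2 and Mmp14 are the gelatinase and the membrane protease that activates it. Mmp14 ranged from 6.40 to 17.5 FPKM, with log2 fold changes of 0.47 ± 0.22 for diet in DKO (limma adjusted p = 0.435) and -0.08 ± 0.26 in DKO/hA1. Mmp2 ranged from 0.586 to 2.22 FPKM and had 0.25 ± 0.25 and 0.36 ± 0.26 with the transgene on Western diet and on chow. Mmp13, an interstitial collagenase, had 0 to 9 fragments. The library at 0, DKO/hA1 Western diet replicate 3, allows up to 3 fragments.

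TIMP proteins inhibit these proteases. Timp3, which binds to the matrix, stood at 7.96, 3.95, 7.84 and 5.79 FPKM in DKO chow, at 5.22, 2.70 and 2.42 in DKO Western diet, at 10.98 and 5.54 in DKO/hA1 chow, and at 5.08, 10.8 and 6.39 in DKO/hA1 Western diet. DKO Western diet held the 2 lowest values, but groups overlapped in each comparison. The log2 fold change was -0.80 ± 0.31 with diet in DKO (limma adjusted p = 0.358) and 0.96 ± 0.33 with the transgene on Western diet (0.779). Timp2 ranged from 2.34 to 8.79 FPKM, with 0.61 ± 0.26 (0.847) in the latter comparison.

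Timp1, which activated stellate cells and other cells produce, was at 0.211, 0.205, 0.214 and 0.266 FPKM in DKO chow, at 0.577, 0.325 and 0.382 in DKO Western diet, at 0.471 and 0.517 in DKO/hA1 chow, and at 0.426, 0.883 and 0.979 in DKO/hA1 Western diet. DKO chow was the lowest group, with 1 or 2 fragments a library, and the other libraries had 2 to 11, so the counting intervals overlap widely. Without the level filter its log2 fold change with the transgene averaged over diets was 0.29 ± 0.09 (limma adjusted p = 0.383). Timp1 lies within Syn1 and Timp3 within Syn3, on the opposite strand in both cases. Syn1 ranged from 0.0714 to 1.21 FPKM, highest in the 3 DKO/hA1 Western diet libraries (1.05 to 1.21), and Syn3 from 0.238 to 0.620.

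**Figure D4:**
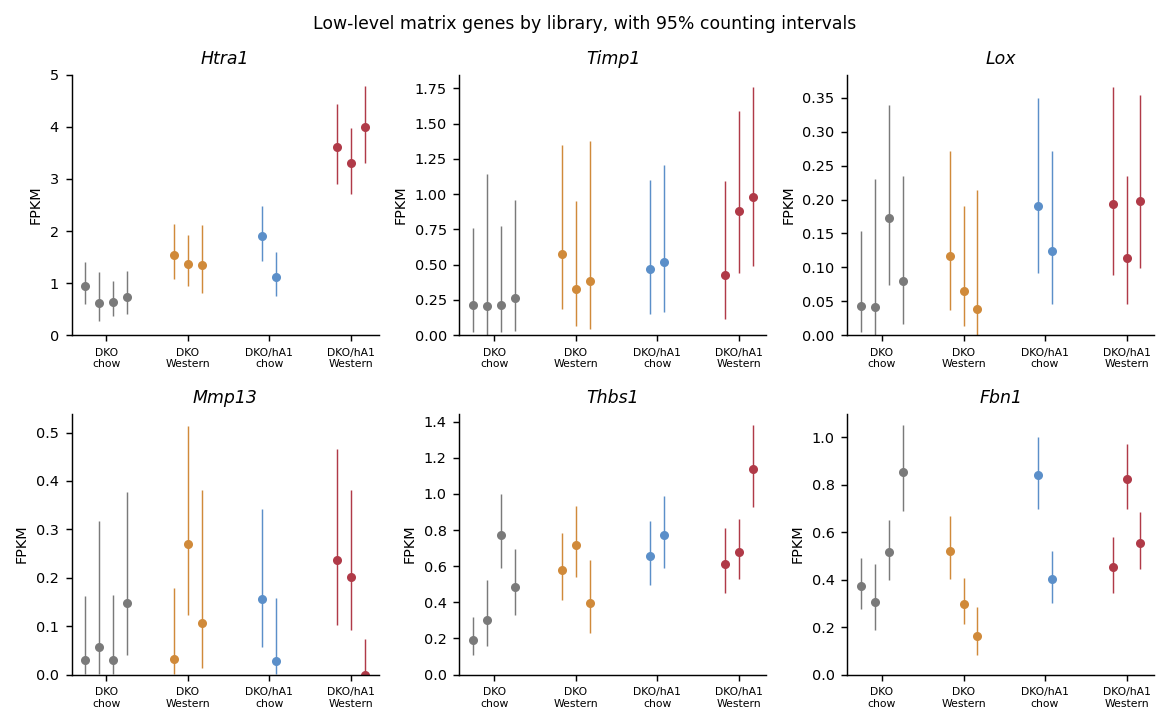
FPKM in each library for Htra1 and for the 5 members below the level at which a gene was tested, with exact 95% Poisson intervals from the whole fragments recovered. The Mmp13 library at 0 is drawn up to 3 fragments instead. Intervals of Timp1, from 1 to 11 fragments, overlap between groups, while those of Htra1 in DKO/hA1 Western diet lie above those in DKO chow.

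Contractile and stellate cell genes mark quiescent or activated stellate cells and vascular smooth muscle. Acta2, the smooth muscle actin of myofibroblasts, stood at 1.61, 1.54, 4.08 and 4.91 FPKM in DKO chow and between 1.37 and 2.48 FPKM in the other 8 libraries. Its log2 fold change was -0.58 ± 0.29 with diet in DKO (limma adjusted p = 0.462), and 0.21 ± 0.31 and -0.33 ± 0.33 with the transgene on Western diet and on chow. Tagln, a second smooth muscle gene, ranged from 3.27 to 9.77 FPKM, and its 2 highest libraries were DKO chow replicates 3 and 4, as for Acta2. Des, the muscle and stellate cell filament desmin, ranged from 1.48 to 4.86 FPKM. Lrat, which makes the retinyl ester that quiescent stellate cells store, ranged from 2.01 to 6.52 FPKM, with 0.59 ± 0.26 with the transgene on Western diet (0.852). The mean of Acta2 was 3.04 ± 1.72 FPKM in DKO chow, its highest group, and 1.97 ± 0.562 in DKO/hA1 Western diet, whereas that of Col1a1 was 1.89 ± 0.996 in DKO chow, its lowest group, and 6.81 ± 1.54 in DKO/hA1 Western diet.

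Tgfb1 encodes the growth factor that drives collagen synthesis in stellate cells and is made by macrophages among other cells. It stood at 4.21, 2.30, 4.27 and 5.92 FPKM in DKO chow, at 7.23, 7.14 and 4.22 in DKO Western diet, at 6.18 and 2.84 in DKO/hA1 chow, and at 7.25, 7.53 and 10.5 in DKO/hA1 Western diet. The livers with transgene and Western diet were the 3 highest, by a margin of 7.25 to 7.23. With diet its log2 fold change was 0.83 ± 0.33 in DKO/hA1 (limma adjusted p = 0.287) and 0.44 ± 0.28 in DKO (0.566), and with the transgene on Western diet it was 0.45 ± 0.29 (0.963).

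Genes around these members were read from further lists. Of 10 tested ligands, receptors and SMAD proteins of the TGF-beta pathway, 0 passed in any comparison (limma, at most 1 at an unadjusted p below 0.05 in each diet or transgene comparison), with a median transgene log2 fold change of 0.18 on either diet. Of 5 tested PDGF ligands and receptors, 0 passed (limma), and 2 had an unadjusted p below 0.05 with the transgene on Western diet.

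Among 13 tested genes of collagen folding and processing, Plod1 and Pcolce2 rose with diet in DKO/hA1. Plod1, a lysyl hydroxylase that modifies collagen chains, was at 13.8 to 19.2 FPKM in DKO chow, 25.3 to 27.6 in DKO Western diet, 10.2 and 17.1 in DKO/hA1 chow and 26.0 to 28.0 in DKO/hA1 Western diet (0.97 ± 0.18, limma adjusted p = 0.0266). Pcolce2, which enhances the trimming of procollagen, averaged 2.24 ± 0.547, 4.71 ± 1.12, 1.13 ± 0.990 and 4.19 ± 0.577 FPKM in the 4 groups, in that order (1.37 ± 0.27, 0.0331). Both also passed for diet averaged over genotypes, by 0.74 ± 0.11 and 1.07 ± 0.17 (adjusted p = 0.00759 and 0.00878). The calls in DKO/hA1 were lost without DKO/hA1 chow replicate 2 (adjusted p = 0.4 for Plod1 and 0.446 for Pcolce2), without replicate 2 or 3 of DKO/hA1 Western diet, without DKO chow replicate 3, and that of Pcolce2 also without DKO chow replicate 1. In all, 16 of 26 alternatives kept Plod1 and 15 of 26 kept Pcolce2 in DKO/hA1, and both were lost with equal totals (0.103 and 0.0623), with only the groups compared (0.148 and 0.142), with the code number block (0.0978 and 0.122) and without the 2 neutrophil-high libraries (0.0676 and 0.0735). Pcolce2 was also lost with no level filter (0.0576) or one of 5 FPKM (0.06). Their transgene log2 fold changes averaged over diets were -0.16 and -0.39 and did not pass. None of 5 other collagens, 6 other basement membrane genes and 8 other matrix proteases and inhibitors passed in any comparison (limma, at most 2 of a list at an unadjusted p below 0.05 within a diet or genotype, and 4 of the proteases and inhibitors for diet averaged over genotypes).

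Cell type markers were set beside the matrix genes. Of 13 tested stellate cell markers 0 passed (limma). With the transgene, 3 on Western diet and 2 on chow were positive at an unadjusted p below 0.05 (4.05% and 3.91% of genes). On Western diet 12 of 13 log2 fold changes were above 0 and on chow 9 of 13 (51.4% and 50.2% of genes). Their medians were 0.35 and 0.14. The summed markers came to 63.3 to 141.6 FPKM in DKO chow, 81.6 to 137.1 in DKO Western diet, 109.9 to 150.4 in DKO/hA1 chow and 117.5 to 159.9 in DKO/hA1 Western diet. The sums overlapped between each pair of groups. Ecm1 and Colec11 weigh most in them, with means of 52.1 and 22.6 FPKM over all libraries. Portal fibroblast markers, of which 4 of 8 were tested, summed to 5.51 to 10.1, 6.61 to 9.81, 10.2 to 11.7 and 12.2 to 13.2 FPKM, and the 5 transgene libraries lay above the 7 others by a margin of 10.22 to 10.07. This order rested on Dpt, since without it, a sum added after the values were seen, the other 7 markers came to 2.89 to 5.63, 4.17 to 5.73, 4.40 to 5.06 and 5.17 to 6.10 FPKM and overlapped between libraries with and without the transgene. Dpt, the marker among them that encodes dermatopontin, averaged 3.01 ± 0.960, 3.36 ± 0.841, 6.23 ± 0.568 and 6.84 ± 0.461 FPKM. Dpt rose with the transgene averaged over diets (0.88 ± 0.13, limma adjusted p = 0.0435), a call kept in 11 of 25 alternatives (adjusted p up to 0.248). Of the 12 single libraries left out, only DKO chow replicate 4 and DKO Western diet replicate 1 left it called. Thy1, a defining portal fibroblast marker, lay between 0.484 and 1.37 FPKM. Its means were 0.7525 and 0.6587 FPKM in DKO chow and Western diet, and 1.085 and 1.094 in DKO/hA1 chow and Western diet. Of the 4 tested portal fibroblast markers, Dpt included, 3 had transgene log2 fold changes above 0 on Western diet and 4 on chow (51.4% and 50.2% of genes). Smooth muscle markers summed to 10.7 to 18.8 FPKM over the 12 libraries and mesothelial markers to 0.404 to 2.87, with 0 of 4 mesothelial markers tested. The part of portal fibroblasts in the collagen values was not tested.

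**Figure D5:**
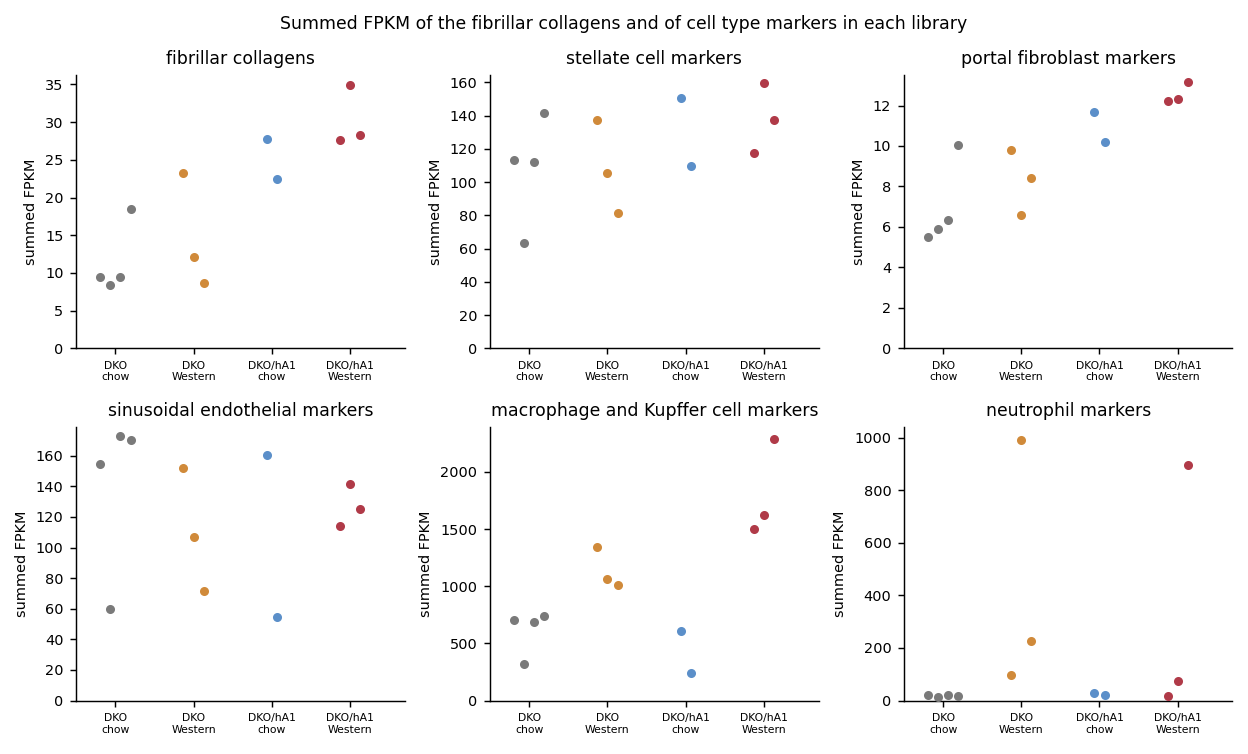
Summed FPKM per library of the 5 fibrillar collagens and of 5 marker lists. Portal fibroblast markers with Dpt included are higher in the transgene libraries (10.2 to 13.2) than in the others (5.51 to 10.1), and without Dpt their sums overlap. The summed stellate cell markers overlap between groups, and neutrophil markers are high in 2 libraries.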

How the data were processed

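Liver RNA was extracted with an on-column DNA digestion, samples with an RNA integrity number below 7 were discarded, and libraries were sequenced 8 to 9 to a lane, per the labels' protocols. TopHat 1.3.2, Bowtie 0.12.8, SAMtools 0.1.19, Cuffdiff and build mm10 are named in the submitters' processing notes; the annotation and the use of strand are not given in the sources used here. The deposited table holds 1 FPKM column per library, taken as FPKM from its decimal values and totals (379689 to 578927), although it is named as counts.

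The FPKM values were scaled with an unweighted trimmed mean of M-values and tested as log2(FPKM + 1) in limma 3.58.1 (R 4.3.3), in 1 model of the 4 groups over all 12 libraries with trended and robust variance moderation. Tests were two-sided, and p-values were Benjamini-Hochberg adjusted over 11546 genes with at least 1 FPKM in at least 2 libraries. Before that, 787 small RNA genes were left out. So were 21 genes at 0 throughout at least 1 group but at 1 FPKM or more in every library of another group. Levels are printed as deposited, unscaled. Total counts were not used here; relative depth and whole fragments were read from the spacing of FPKM values. The scripts were tested on simulated data for the diet comparison in DKO only. The planted changes were larger than any fitted for a member, so recovery of changes of the members' size was not tested.

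Members, lists and comparisons were chosen with earlier results of these data known, and the transgene effect averaged over diets was added after the values were seen. Values in every library are given for members that passed any test and, up to 16 members, for those with the largest log2 fold change. Acta2 and Timp1 were added to these after their values were seen. In further lists, genes that passed are named, except for results that are not reported here. Positions and promoters are RefSeq's (GRCm38.p6). Python 3.11.15, pandas 2.3.3, numpy 2.4.6, scipy 1.17.1 and matplotlib 3.10.9 were used. The alternatives were other values added before log2, level filters, scalings, variance models, blocks and left-out libraries.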

Additional observations from a re-analysis of the deposited data

Results flagged for a closer look

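Within DKO chow, the only group of 4 libraries, 5 of 37 members had 1 library far from the other 3, where the gap to the nearest library was most of the group's range. For a single gene, chance gives such a gap in about 1 of 20 groups. Members are not independent of each other here, since replicate 4 was the highest of its group for 27 of the 37. The share of all genes with such a gap is not given here, so 5 of 37 is not shown to be an excess. In replicate 4, Col1a1 stood at 3.38 FPKM (gap 0.957 of the range), Col3a1 at 9.64 (0.877), Loxl1 at 1.25 (0.876) and Timp1 at 0.266 (0.863). The gap of Timp1 rests on 1 or 2 fragments per library. Fn1 stood apart in replicate 1 instead, at 271.3 FPKM (0.845). Replicate 4 is also the library with high Krt19 (8.23 FPKM) and Epcam (9.30 FPKM), and the part of bile duct cells in its matrix values was not tested.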

How the results depend on the processing

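No called value changed sign. The members' median log2 fold change, which has no test, changed sign for diet in DKO/hA1 without DKO/hA1 chow replicate 2 (0.22 to -0.02), and for diet averaged over genotypes (0.09) with equal totals (-0.03), without DKO Western diet replicate 1 (-0.02) and without DKO/hA1 chow replicate 2 (-0.03). For diet in DKO, where it was -0.00, it took either sign. With equal totals the medians of the proteoglycans and glycoproteins for diet in DKO, of the contractile genes for diet in DKO/hA1, and of basement membrane and collagen VI genes for diet averaged over genotypes changed sign, as did that of the fibrillar collagens for the interaction with FPKM as deposited. The number of members that passed stayed at 0 for the transgene on Western diet, for diet in DKO and for the interaction under each alternative run. For diet in DKO/hA1 it was 0 in place of 1 with a filter of 5 FPKM, which left 17 members and not Htra1, with equal totals, with only the groups compared, with the replicate block and equal totals together, with the sample code number as a block, and without the 2 neutrophil-high libraries, and 0 to 2 when single libraries were left out. For diet averaged over genotypes it was 0 with the 5 FPKM filter and with the code number block, 2 with FPKM as deposited (Htra1 and Lum), and 0 to 2 with single libraries left out. For the transgene averaged over diets it was 0 with the 5 FPKM filter, with the replicate block (Htra1 adjusted p = 0.0607) and without the neutrophil-high libraries, 2 with equal totals or with small RNA genes kept (Col5a2 and Htra1), 2 with the replicate block and equal totals (Col1a1 and Htra1), and 0 to 2 with single libraries left out. For the transgene on chow it was 1 in place of 0, Col5a2, with only the groups compared or without the neutrophil-high libraries, and 0 to 1 with single libraries left out. The cause of these shifts was not tested, except that the 5 FPKM filter removes Htra1.

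Replicate numbers did not pair the libraries. The correlations of 15 same-numbered pairs ran from -0.29 to 0.45, with 4 above 0.1, and 4 of 12 libraries correlated best with their own number. With the replicate block, Plod1 did not pass for diet in DKO/hA1 (limma adjusted p = 0.0584, and 0.096 with equal totals). Equal totals moved the median of all genes to -0.19 for diet in DKO, -0.14 for diet averaged over genotypes, 0.16 and 0.12 for the transgene on Western diet and averaged over diets, and 0.11 for the interaction. The members' median ranged from 0.38 to 0.73 for the transgene on Western diet and from 0.13 to 0.56 on chow over all alternatives, and from -0.18 to 0.16 and -0.02 to 0.43 for diet in DKO and DKO/hA1. Depth limits Timp1, Lox and Mmp13, at 0 to 11 fragments, and 2 to 4 libraries a group limit every comparison. Relative depth was also higher in each DKO/hA1 library than in each DKO library of the same diet. Its part in the transgene differences was not tested.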

Other observations

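Among the genes of the further lists, Nid2 was highest in both DKO/hA1 chow libraries, and the member Col5a2 had its highest mean there. Nid2 was chosen after its values were seen. Nid2, a basement membrane linker, stood at 0.760, 0.902, 2.33 and 2.82 FPKM in DKO chow, 0.900, 1.18 and 0.953 in DKO Western diet, 3.80 and 3.497 in chow-fed DKO/hA1, and 1.61, 0.792 and 1.498 in DKO/hA1 Western diet. Its log2 fold change was 0.85 ± 0.29 with the transgene on chow (limma adjusted p = 0.479) and -1.03 ± 0.30 with diet in DKO/hA1 (0.127). It did not pass the test.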
